A study of Mus musculus with 32 samples.

Results

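The genes that carry iron into cells, store it, export it and set its level through hepcidin were followed in liver and epididymal white adipose tissue (eWAT) of mice given corticosterone (cort) or vehicle (veh) and fed either of 2 diets, of normal (NPD) or high protein content (HPD). There were 10 such genes among the 47643 gene IDs of the count table: the transferrin receptors Tfrc and Tfr2, transferrin (Trf), the hepcidin genes Hamp and Hamp2, the iron exporter ferroportin (Slc40a1), the ferritin subunits Fth1 and Ftl1, the metal transporter DMT1 (Slc11a2) and Bmp6. They were picked by symbol for these roles, with their levels and log2 changes in these same libraries already in view, so every level, fold change and adjusted p-value below describes the genes that were picked and is not independent evidence that iron genes respond.

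All mice were male C57BL/6 by the labels, C57BL/6J by the methods of the study, 10 weeks old, and were treated for 7 days. The 4 groups were vehicle with the NPD, in which 20% of the calories were protein (Veh NPD), vehicle with the HPD, in which 60% were (Veh HPD), cort with the NPD (Cort NPD) and cort with the HPD (Cort HPD). Vehicle was ethanol diluted in the drinking water, and cort was dissolved in that same vehicle, so all groups drank it. The diets were matched for fat, and the HPD held less carbohydrate, so that an effect of protein and of carbohydrate cannot be told apart. Each group had 4 libraries per tissue, 32 in all, made by 3′ mRNA sequencing of total RNA from the whole tissue, and nothing in the labels ties a liver library to an eWAT library of the same mouse. In such bulk RNA, fewer cells of a type and less RNA per cell cannot be told apart.

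Total counts ran from 8933307 to 18057936 per library. Liver Veh HPD replicate 4 was left out, so liver values come from 15 libraries. It stood apart in hepatocyte markers, with hepatocyte transcripts summing to 42653 CPM (counts scaled to a common library size) against 76600 to 265281 in the other liver libraries. Exocrine pancreas transcripts summed to 154 CPM in it, beside 115 CPM in Veh HPD replicate 1, which was kept. Hepatocyte markers identified the liver, and adipocyte markers the eWAT, where they summed to between 27272 and 35337 CPM against 42.0 to 96.7 in liver. In eWAT, Cort HPD replicate 4 held epididymis transcripts at 7305 CPM. Leaving that library out ended no call among the iron genes in eWAT and added that of Slc11a2 for cort on the NPD.

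Iron circulates bound to transferrin, enters cells through the transferrin receptor TFRC and the endosomal transporter DMT1, and is stored inside ferritin, a shell of heavy (FTH1) and light (FTL1) chains. Ferroportin is the known route of iron out of cells. Hepcidin, a peptide hormone made by hepatocytes, binds ferroportin and causes its loss from the cell surface. Hepatocytes transcribe Hamp in response to BMP6 and BMP2 from the liver endothelium, which act through SMAD proteins with TFR2, HFE and hemojuvelin on the hepatocyte surface, and in response to interleukin-6 through STAT3. Hamp2 is a duplicate of Hamp in the mouse. Iron-regulatory proteins add a further layer: in iron-poor cells they bind stem-loops called iron-responsive elements, which stabilizes Tfrc mRNA when the elements lie in the 3′ UTR and blocks translation of ferritin and ferroportin mRNA when an element lies in the 5′ UTR.

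Matches to a strict form of these elements were looked for in the transcripts of the 10 genes. A site was a C, a run of 5 bases, the loop CAGTGN and a run of 5 bases that pairs with the earlier run, with at least 4 of the 5 pairs of the Watson-Crick kind, read on the transcript strand only. Of 21877 protein-coding genes in GENCODE for GRCm38, 0.658% held such a site in a transcript, and 4 of the 10 iron genes did: Tfrc with 4 sites in its 3′ UTR, and Slc40a1, Fth1 and Ftl1 with 1 site each in the 5′ UTR. The sites are printed 5′ to 3′ with the loop in capitals.
Tfrc, chr16:32631225-32631241, plus strand, 3′ UTR: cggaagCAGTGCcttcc
Tfrc, chr16:32631604-32631620, plus strand, 3′ UTR: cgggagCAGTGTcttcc
Tfrc, chr16:32631669-32631685, plus strand, 3′ UTR: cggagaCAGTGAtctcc
Tfrc, chr16:32631716-32631732, plus strand, 3′ UTR: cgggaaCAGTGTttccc
Slc40a1, chr1:45925471-45925487, minus strand, 5′ UTR: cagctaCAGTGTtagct
Fth1, chr19:9982738-9982754, plus strand, 5′ UTR: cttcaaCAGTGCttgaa
Ftl1, chr7:45459785-45459801, minus strand, 5′ UTR: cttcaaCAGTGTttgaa
The Fth1 and Ftl1 sites share their stem, and the 4 Tfrc sites all open with CGG. A match in letters is a description of the transcript and does not show that the site is bound in these tissues. The pattern asks for an unbroken run of pairs in the stem, so an element of another shape is missed. Genes without a match, and further sites in the genes with one, are thus not shown to lack such an element.

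Hamp and Hamp2 lie side by side on the minus strand of chromosome 7 in GRCm38, Hamp at chr7:30942368-30944032 and Hamp2 at chr7:30922372-30924681.

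The other iron genes lie at chr16:32608920-32632794 (Tfrc), chr5:137569840-137587481 (Tfr2), chr19:9980598-9985098 (Fth1) and chr13:38345107-38500302 (Bmp6) on the plus strand, and at chr9:103204001-103230444 (Trf), chr1:45908068-45926523 (Slc40a1), chr7:45457944-45459884 (Ftl1) and chr15:100387898-100425072 (Slc11a2) on the minus strand. Bmp6 overlaps Txndc5 on the other strand, which had 14763 counts, and Trf overlaps Gm20425 on the same strand, which had 15. Whether the counting used strand is not given in the sources used here, so it is not known whether strand kept reads of Bmp6 and Txndc5 apart.

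The counts of each tissue were fitted with edgeR's quasi-likelihood model, with 1 mean per group, and p-values were adjusted over all genes tested (Benjamini-Hochberg). A gene is called higher or lower here, or said to have risen or fallen, where its adjusted p was under 0.05. Levels are CPM after scaling each library by its TMM factor, given as mean ± SD, and changes are log2 fold changes ± SE. In liver 12391 genes were tested, 9 of the iron genes among them, and in eWAT 15187, with 7. Bmp6 in liver had at most 2 counts in any library, and Hamp, Hamp2 and Tfr2 in eWAT at most 23, so these were not tested there.

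The question put to the liver first was which of the iron genes followed the diet. Without cort, the HPD raised Tfrc, the receptor for transferrin-bound iron (ENSMUSG00000022797), and no other iron gene was called. Tfrc was 9.64, 12.4, 6.23 and 12.9 CPM in the 4 Veh NPD libraries and 57.0, 68.3 and 24.9 CPM in the 3 Veh HPD libraries. Every Veh HPD library lay above every Veh NPD library, though replicate 3 lay well below the other 2 of its group. The change was 2.28 ± 0.29 on the log2 scale, a 4.87-fold difference (edgeR, adjusted p = 0.0015, n = 4 and 3). This 1 gene of 9 stands beside 0.169% of all genes tested in this comparison. When only these 2 groups were fitted, the change was the same size but the adjusted p was 0.10.

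Under cort the diet difference in Tfrc was present again. Cort NPD libraries held 12.2, 15.4, 17.6 and 14.5 CPM and Cort HPD libraries 67.0, 47.9, 44.7 and 42.9 CPM, with no overlap. The change was 1.76 ± 0.27, or 3.39-fold (adjusted p = 8.4e-04). Cort itself left no call on Tfrc in liver, with changes of 0.54 ± 0.28 on the NPD (adjusted p = 0.22, 95% interval -0.0011 to 1.08) and 0.02 ± 0.28 on the HPD (0.98, interval -0.53 to 0.56). The interaction, which asks whether cort acted differently on the 2 diets, was -0.52 ± 0.39 (adjusted p = 0.62). The order of the group means was thus Veh NPD at 10.3 ± 3.05 CPM, Cort NPD at 14.9 ± 2.21, then Veh HPD at 50.1 ± 22.5 and Cort HPD at 50.6 ± 11.1, and neither neighbouring pair that shared a diet was called different.

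**Figure D1:**
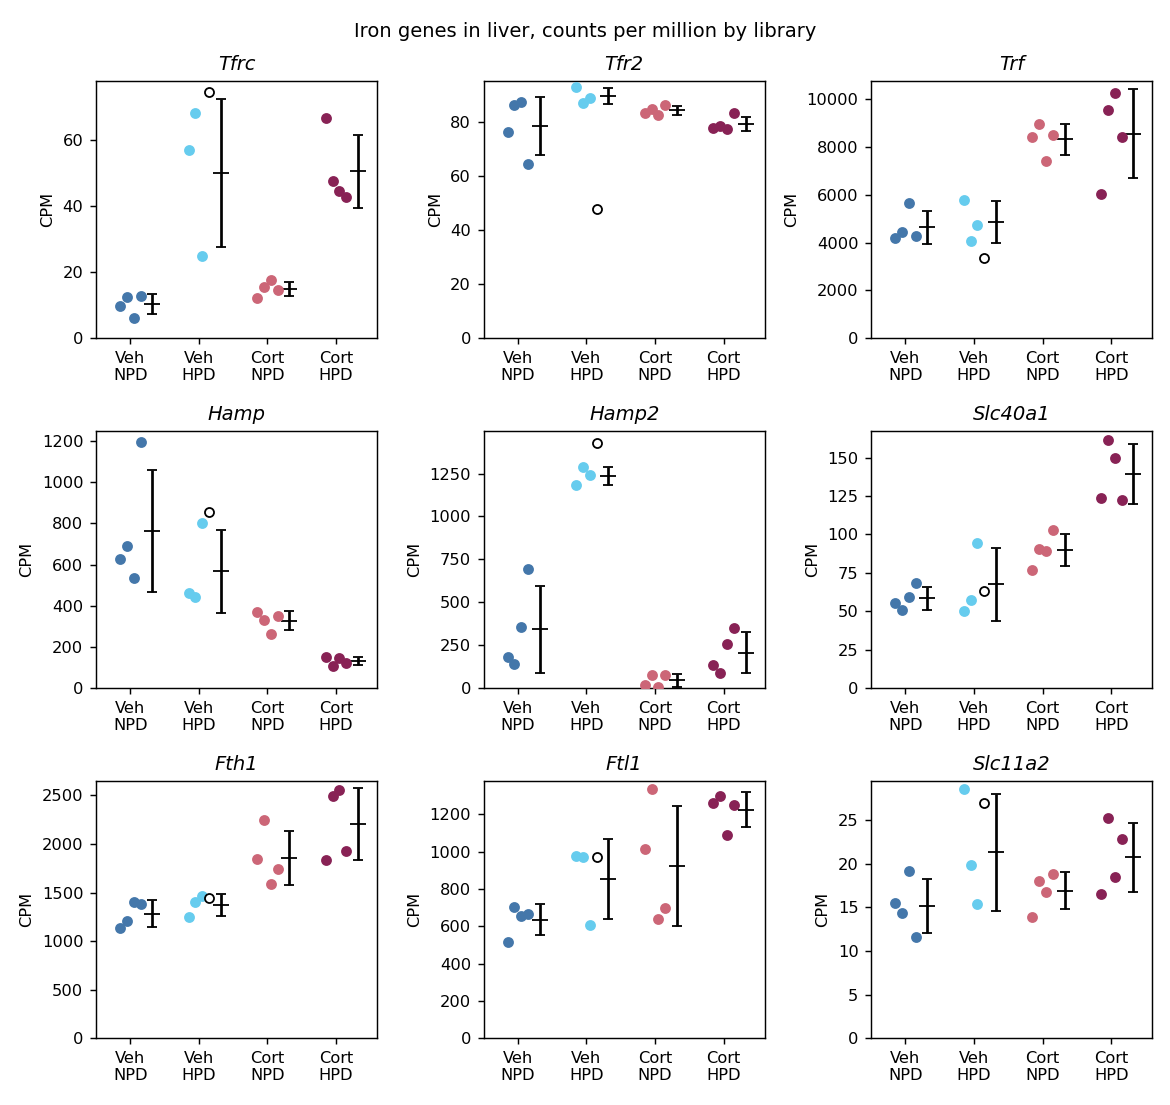
CPM (linear axes from 0) of 9 iron genes in each liver library, by group. Filled circles are the 15 libraries fitted, open black circles the left-out library of Veh HPD (scaled with all 16 liver libraries), and bars the mean ± SD of the fitted libraries. Tfrc separated by diet, Hamp and Trf by cort, and Hamp2 was highest in the Veh HPD libraries at 1182 to 1289 CPM.

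Young red blood cells are known for a high level of transferrin receptor, so the summed level of red-cell markers was read beside Tfrc. Of 9 markers on that list, 8 had a gene ID, and their sum was 1390 to 2932 CPM in Veh NPD liver and 1913 to 3469 CPM in Veh HPD liver, ranges that overlap where those of Tfrc did not. In Cort HPD liver the sum was 5273 to 7627 CPM, above all other fitted libraries, while Tfrc was at the level of Veh HPD. The part of red cells in the Tfrc values was not tested beyond this. The liver genes with the log2 CPM profile most like that of Tfrc over the 15 libraries, which share the 4 groups, were Tbk1 (Pearson r = 0.889), Ctsl (0.888), Parp12 (0.873), Acsl4 (0.870) and Ifih1 (0.861).

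Under cort, 3 of the 9 iron genes tested in liver were called between diets, beside 5.88% of all genes. Tfrc and ferroportin were higher on the HPD, and Hamp was lower. The median change over the 9 genes was 0.30. Fth1 (0.25 ± 0.16), Ftl1 (0.41 ± 0.21), Slc11a2 (0.30 ± 0.20), Trf (0.04 ± 0.18) and Tfr2 (-0.09 ± 0.12) did not pass the test.

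Cort was followed by the most calls. On the NPD, 5 of 9 iron genes were called in liver, beside 12.6% of all genes tested: Trf, Slc40a1 and Fth1 rose, and Hamp and Hamp2 fell. On the HPD, 4 of 9 were called, beside 9.89%: the same 3 rose and Hamp fell. The medians over the 9 genes, 0.53 on the NPD and 0.02 on the HPD, hide this split, because genes moved in both directions.

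Hamp (ENSMUSG00000050440) fell on both diets. It was 628, 691, 533 and 1192 CPM in Veh NPD liver and 370, 332, 262 and 349 CPM in Cort NPD liver. On the HPD it was 462, 441 and 799 CPM with vehicle and 151, 110, 145 and 121 CPM with cort. No cort library overlapped the vehicle libraries of its diet, and the 4 Cort HPD libraries were the lowest of all. The changes were -1.21 ± 0.23 on the NPD (0.431-fold, adjusted p = 0.0013) and -2.11 ± 0.25 on the HPD (0.232-fold, 1.3e-05).

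Diet moved Hamp where cort was present. Cort HPD liver held 132 ± 19.6 CPM (n = 4) against 328 ± 47.2 CPM in Cort NPD liver (n = 4), a change of -1.32 ± 0.23 (adjusted p = 0.0016). With vehicle the change was -0.42 ± 0.25 (adjusted p = 0.62, interval -0.91 to 0.06), and the groups overlapped at 567 ± 201 and 761 ± 295 CPM. The difference between the 2 diet effects is the interaction, -0.90 ± 0.33, with an unadjusted p of 0.014 and an adjusted p of 0.29, so it was not called. None of the 9 genes had a called interaction in liver by edgeR, beside 0.113% of all genes, nor by DESeq2 or limma voom, and Hamp alone had an unadjusted p under 0.05. The liver genes with the profile most like Hamp over the 15 libraries were Mme (r = 0.953), Car1 (0.934), Fitm1 (0.929), Gabbr2 (0.926) and Akr1c6 (0.921).

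Hamp2 (ENSMUSG00000056978) fell with cort as Hamp did on the NPD, but it was highest in the livers of vehicle mice on the HPD. It was 184, 139, 355 and 694 CPM in Veh NPD liver and 1182, 1289 and 1239 CPM in Veh HPD liver. With cort it was 18.1, 78.3, 8.02 and 78.2 CPM on the NPD and 133, 91.6, 257 and 349 CPM on the HPD. The Veh HPD libraries lay close to each other, whereas the other groups spread several-fold, and at each treatment all HPD libraries lay above all NPD libraries.

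The spread left most Hamp2 comparisons uncalled. Cort lowered it on the NPD by a change of -2.91 ± 0.78 (adjusted p = 0.031), and on the HPD the change was -2.57 ± 0.79 (0.066). The diet changes were 1.85 ± 0.78 with vehicle (adjusted p = 0.48) and 2.19 ± 0.76 with cort (0.12), opposite in sign to those of Hamp. The cort value on the NPD lost its call without any of 4 single libraries, Cort NPD replicates 1 and 3 and Veh NPD replicates 3 and 4, with adjusted p up to 0.079, and the value on the HPD gained a call with DESeq2 (0.0057), limma voom (0.0092), only the 2 groups compared (0.0036) or all 16 liver libraries (0.040), and without Cort NPD replicate 3 (0.038). With only the 2 groups compared, the cort value on the NPD also lost its call (adjusted p = 0.095). The diet value under cort was called by DESeq2 (2.19, adjusted p = 0.017) and limma voom (2.56, 0.017).

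**Figure D2:**
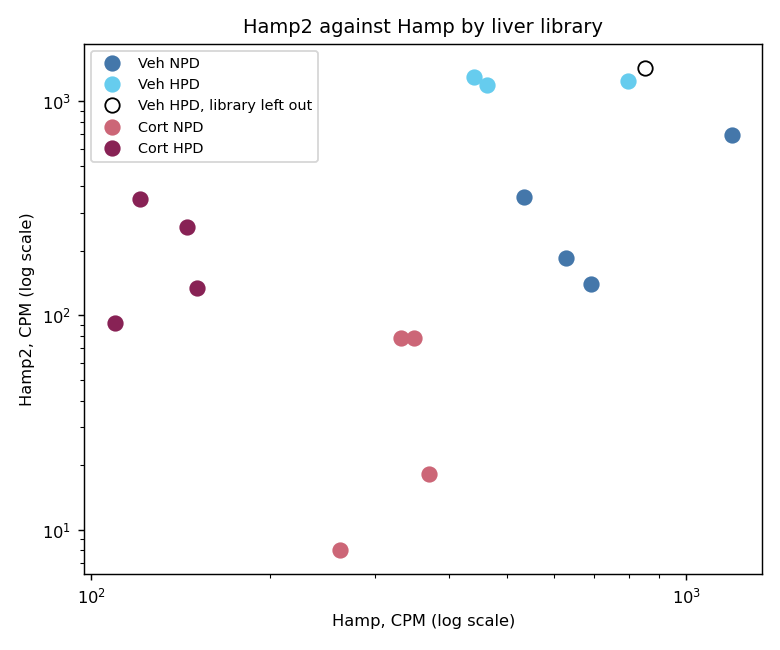
Hamp2 against Hamp in each liver library, in CPM on log axes, colored by group, with the left-out Veh HPD library as an open circle. At like Hamp, libraries on the HPD lay above those on the NPD: the Veh HPD libraries held 1182 to 1289 CPM of Hamp2 and the Veh NPD libraries 139 to 694 CPM.

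Within each library, Hamp2 divided by Hamp was 0.202 to 0.666 in Veh NPD and 0.0307 to 0.236 in Cort NPD liver, against 1.55 to 2.92 in Veh HPD and 0.836 to 2.89 in Cort HPD liver. All HPD libraries were thus above all NPD libraries in this ratio, which follows the pair across libraries and is not a comparison of transcript numbers between the genes. Over the 15 libraries the Pearson r of their log2 CPM was 0.345. The 2 transcripts were identical at 94.6% of 410 aligned bases, with a longest identical run of 87 bases, so reads could be split between the genes in counting. When the 2 counts were added, the cort change on the HPD was -2.41 ± 0.31 (adjusted p = 8.4e-05), while the diet change under cort was -0.14 ± 0.28 (0.83), where Hamp alone had fallen. The diet change with vehicle was then 0.71, against -0.42 for Hamp alone, and neither was called.

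Hamp2 is also known from the pancreas, so exocrine pancreas markers were summed in each liver library. The sum was 115 CPM in Veh HPD replicate 1 but 0.346 and 0.878 CPM in replicates 2 and 3, which held as much Hamp2. In the other 3 groups it was at most 14.1 CPM. The part of pancreas tissue in the Hamp2 values was not tested.

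Ferroportin (Slc40a1, ENSMUSG00000025993), the exporter that hepcidin acts on, rose with cort in liver on both diets. It was 55.4, 51.0, 59.0 and 68.3 CPM in Veh NPD and 77.2, 90.3, 89.5 and 103 CPM in Cort NPD liver. On the HPD it was 50.6, 57.5 and 94.7 CPM with vehicle and 123, 161, 150 and 123 CPM with cort. The groups did not overlap on either diet, and Cort HPD libraries were above every other library. The changes were 0.62 ± 0.18 (adjusted p = 0.021) on the NPD and 1.04 ± 0.19 (0.0012) on the HPD, and the HPD raised it further under cort by 0.63 ± 0.17 (0.034).

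The order of the Slc40a1 means, from Veh NPD at 58.4 ± 7.37 CPM through Veh HPD at 67.6 ± 23.7 and Cort NPD at 90.03 ± 10.6 to Cort HPD at 139 ± 19.3, was the reverse of that of Hamp at 761, 567, 328 and 132 CPM. Both were described from the same libraries, and no test links them. With the Hamp and Hamp2 counts added, the diet change with vehicle was 0.71, not called. The reverse order was thus that of Hamp counted alone. The Slc40a1 cort call on the NPD was lost without any of 4 single libraries, Veh NPD replicates 1 and 2 and Cort NPD replicates 3 and 4 (adjusted p of 0.051 to 0.083). The diet call under cort was lost without any of 5, Cort NPD replicates 1, 2 and 3 and Cort HPD replicates 2 and 3 (0.067 to 0.094). It was also lost without TMM factors (0.46 ± 0.19, adjusted p = 0.15), and the Cort HPD library with the lowest factor, replicate 1, was at 0.754. Macrophages and Kupffer cells are known to carry much ferroportin. The summed level of their 10 markers was lower in cort liver, at 113 to 258 CPM, than in vehicle liver, at 268 to 376 CPM, so for cort it ran opposite to Slc40a1. Between diets under cort the sum was 113 to 169 CPM on the NPD and 148 to 258 CPM on the HPD. These ranges overlapped, and the higher one was on the HPD, as for Slc40a1. The part of these cells in either Slc40a1 result was not tested.

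**Figure D3:**
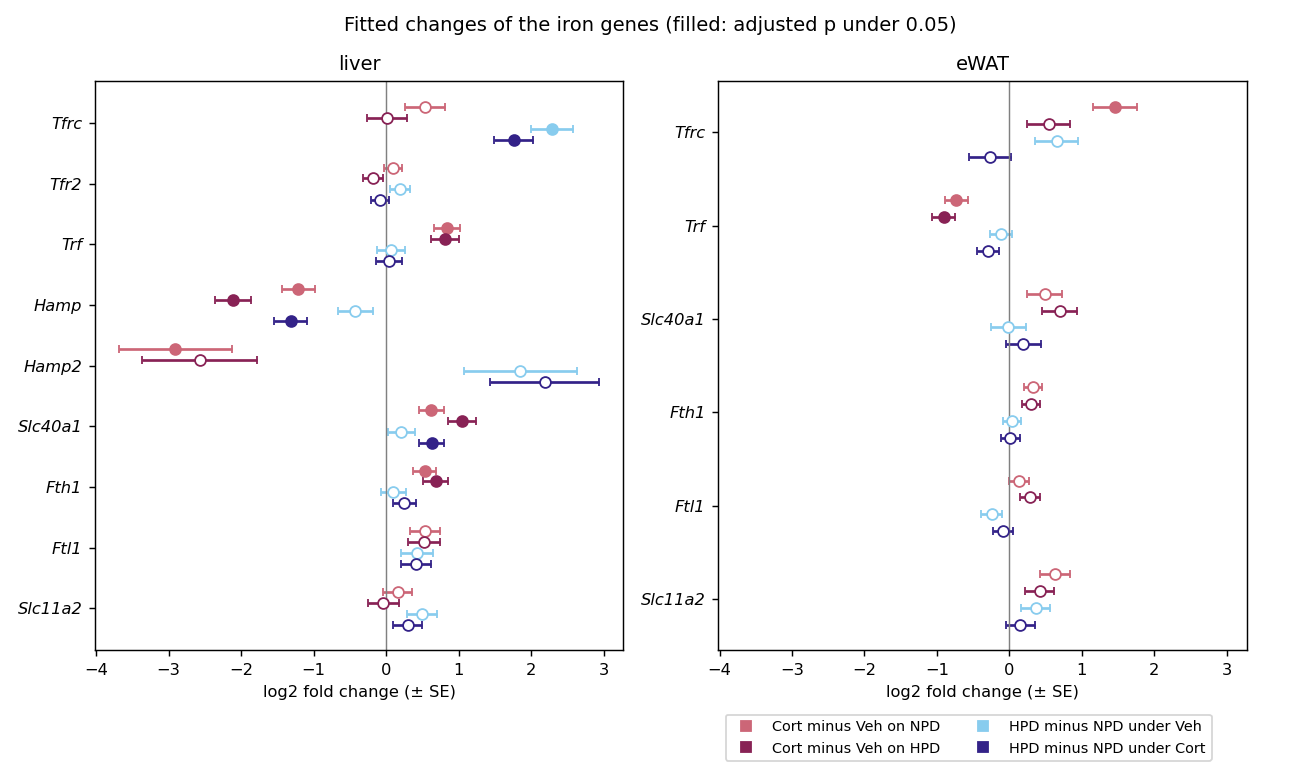
Log2 fold changes (points, with SE as bars) of the iron genes tested, in liver with 9 genes and in eWAT with 6 genes, Bmp6 not drawn. Colors give the comparison, and filled points an adjusted p under 0.05. In liver Tfrc moved with diet at 2.28 and 1.76, and Trf rose with cort in liver but fell with cort in eWAT.

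The ferritin heavy chain Fth1 (ENSMUSG00000024661), the subunit that oxidizes iron for storage, rose with cort in liver. It was 1136, 1205, 1408 and 1387 CPM in Veh NPD and 1848, 2246, 1586 and 1742 CPM in Cort NPD liver, a change of 0.53 ± 0.16 (adjusted p = 0.030). On the HPD it was 1249, 1401 and 1469 CPM with vehicle and 1836, 2491, 2551 and 1931 CPM with cort, a change of 0.68 ± 0.17 (0.015). No groups overlapped in these 2 comparisons, and diet made no called difference. The call on the NPD ended without any of 4 single libraries, Cort NPD replicates 1 and 2 and Veh NPD replicates 1 and 2 (adjusted p up to 0.12), and that on the HPD ended without TMM factors (0.46 ± 0.18, adjusted p = 0.099) and without Veh HPD replicate 1 (0.084). The call on the HPD also ended with only the 2 groups compared (0.671, adjusted p = 0.053).

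The light chain Ftl1 (ENSMUSG00000050708) had changes of like size that were not called. Its liver means were 636 ± 83.2 CPM in Veh NPD, 852 ± 213 in Veh HPD, 922 ± 321 in Cort NPD and 1224 ± 94.3 in Cort HPD. The cort changes were 0.53 ± 0.21 on the NPD (adjusted p = 0.093) and 0.52 ± 0.22 on the HPD (0.15). The value on the NPD was called with no filter (0.545, adjusted p = 0.049) and without Cort NPD replicate 3 (0.661, 0.047). Cort NPD libraries spread from 640 to 1335 CPM and so overlapped the vehicle libraries. Across the 15 libraries Fth1 and Ftl1 had a Pearson r of 0.737 in log2 CPM. Ferritin has many processed copies in the genome, but the 13 other ferritin-like gene IDs held 110 counts in all libraries together against 1260882 for Fth1 and Ftl1.

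Transferrin (Trf, ENSMUSG00000032554), the plasma carrier made by hepatocytes, rose with cort in liver. It was 4207, 4455, 5665 and 4260 CPM in Veh NPD and 8425, 8975, 7425 and 8511 CPM in Cort NPD liver, a change of 0.84 ± 0.18 (adjusted p = 0.0031). On the HPD it was 5796, 4059 and 4739 CPM with vehicle and 6024, 9551, 10255 and 8401 CPM with cort, a change of 0.81 ± 0.20 (0.010). Cort and vehicle libraries did not overlap on either diet, though Cort HPD replicate 1 lay close to the vehicle range. Without TMM factors the change on the HPD was 0.59 ± 0.22 (adjusted p = 0.078), and without Veh HPD replicate 2 it was 0.72 (0.056). With only the 2 groups compared it was 0.805 (0.051). Diet gave 0.07 ± 0.19 with vehicle and 0.04 ± 0.18 with cort, neither called. Summed hepatocyte markers, which hold other secreted plasma proteins, were 87048 to 122218 CPM in Veh NPD, 76600 to 89365 in Veh HPD, 110003 to 135739 in Cort NPD and 152907 to 265281 in Cort HPD liver. These sums overlapped between veh and cort on the NPD and did not on the HPD. Of the 8 markers, cort raised 1 and lowered 3 on the NPD, beside 12.6% of all genes called. On the HPD it raised 4 and lowered 1, beside 9.89%. The part of hepatocyte content in the Trf values was not tested.

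The other 3 genes gave no call in liver. Tfr2 (ENSMUSG00000029716), the hepatocyte's sensor of iron-loaded transferrin, had group means between 78.6 and 89.6 CPM, and its changes lay between -0.18 and 0.19. Their 95% intervals ran from -0.44 at the lowest to 0.45 at the highest, so larger changes lie outside the intervals. The 4 Cort HPD libraries, at 77.4 to 83.3 CPM, lay below the 3 Veh HPD libraries, at 87.1 to 92.9 CPM, without a call (adjusted p = 0.45). Slc11a2 (ENSMUSG00000023030) was 15.1 ± 3.13 CPM in Veh NPD, 21.3 ± 6.69 in Veh HPD, 16.9 ± 2.13 in Cort NPD and 20.7 ± 3.95 in Cort HPD liver, with changes of 0.49 ± 0.21 and 0.30 ± 0.20 for diet (adjusted p = 0.46 and 0.41). Bmp6 (ENSMUSG00000039004), which the liver's endothelium is known to release to induce Hamp, had 5 counts in all 15 liver libraries, 3 in Veh NPD and 2 in Cort NPD, so no difference was detectable at this depth.

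In eWAT fewer iron genes were called. On the NPD, cort was followed by 2 calls of 7, Tfrc higher and Trf lower, beside 7.98% of all genes, and on the HPD by 1 of 7, Trf lower, beside 6.09%. Diet gave no call among the 7 with vehicle, beside 0.0593% of all genes, nor under cort, beside 0.487%, and no interaction was called, beside 0.0132%. At an unadjusted p under 0.05, Tfrc alone passed for diet with vehicle (0.039) and for the interaction (0.038), and no gene passed for diet under cort. DESeq2 and limma voom also called none in these 3 comparisons.

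Tfrc in eWAT was 8.46, 4.09, 14.0 and 12.4 CPM in Veh NPD and 33.3, 22.5, 25.3 and 26.2 CPM in Cort NPD. The groups did not overlap, and the change was 1.46 ± 0.30, or 2.75-fold (adjusted p = 0.0030). On the HPD it was 20.8, 15.6, 16.6 and 8.37 CPM with vehicle and 15.97, 21.8, 24.7 and 26.8 CPM with cort, ranges that overlapped, with a change of 0.54 ± 0.29 (adjusted p = 0.33). In eWAT, then, Tfrc followed cort on the NPD, where in liver it followed diet. Tested in a fit of both tissues, the mean diet effect on Tfrc was larger in liver than in eWAT by 1.83 ± 0.32 (adjusted p = 0.0026), and the mean cort effect differed by -0.72 ± 0.31 (0.19). Among the iron genes with enough counts in both tissues, Tfrc alone was called for the tissue difference in the diet effect, beside 0.795% of the 16482 genes tested. Hamp, Hamp2 and Tfr2 had few or no counts in eWAT, and Bmp6 almost none in liver, so this test could not judge them. Red-cell markers in eWAT summed to 3892 to 7135 CPM in Veh NPD and 3619 to 6491 CPM in Cort NPD, overlapping ranges, and to 12687 to 25864 CPM in Cort HPD, where Tfrc was 22.3 ± 4.71 CPM.

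Trf in eWAT fell with cort on both diets. It was 2152, 1690, 1398 and 1287 CPM in Veh NPD and 1111, 802, 1178 and 841 CPM in Cort NPD, a change of -0.73 ± 0.16 (adjusted p = 0.0031). On the HPD it was 1687, 1202, 1442 and 1694 CPM with vehicle and 891, 840, 753 and 725 CPM with cort, a change of -0.91 ± 0.16 (4.7e-04). No cort library reached the vehicle range of its diet. The direction was opposite to that in liver: the mean cort effect was higher in liver by 1.65 ± 0.19 (adjusted p = 2.9e-07). This was the single call among the iron genes with enough counts in both tissues, beside 7.76% of all genes. Adipocyte markers summed to 28345 to 35089 CPM in Veh NPD and 28720 to 35337 CPM in Cort NPD eWAT, and to 28197 to 34619 and 27272 to 33251 CPM with vehicle and cort on the HPD. These ranges overlapped between vehicle and cort on both diets, and the part of adipocyte content in the Trf values was not tested.

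**Figure D4:**
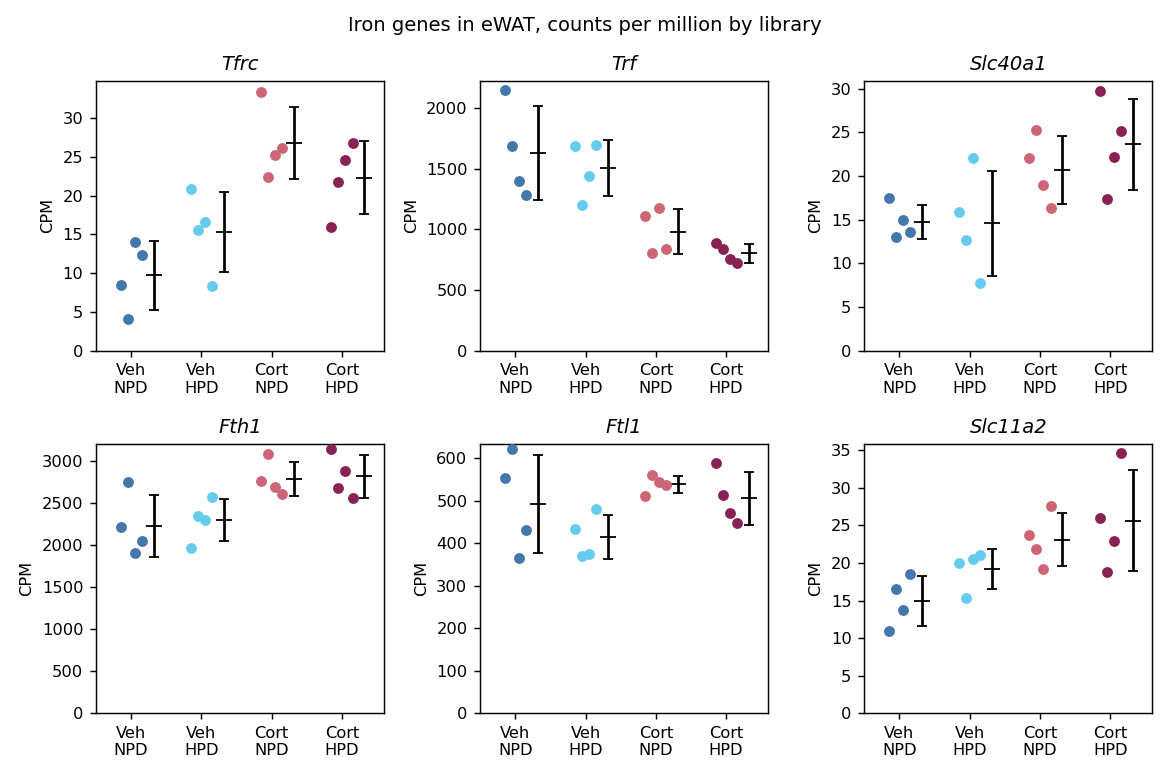
CPM (linear axes from 0) of 6 iron genes in each of the 16 eWAT libraries by group, with bars for the mean ± SD of 4 libraries. Trf was lower in all cort libraries (725 to 1178 CPM) than in all vehicle libraries (1202 to 2152 CPM), and Tfrc had its lowest mean in Veh NPD.

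The storage and transport genes of eWAT were not called. Fth1 was 2228 ± 368 CPM in Veh NPD, 2294 ± 248 in Veh HPD, 2783 ± 206 in Cort NPD and 2812 ± 253 in Cort HPD, with cort changes of 0.32 ± 0.12 (adjusted p = 0.12) and 0.29 ± 0.12 (0.19). The value on the NPD passed the test without Veh NPD replicate 2 (0.44, 0.030). Ftl1 ran from 415 ± 52.3 CPM in Veh HPD to 538 ± 20.5 CPM in Cort NPD. Slc40a1 was 14.8 ± 1.99 and 14.6 ± 6.00 CPM with vehicle on the NPD and HPD and 20.7 ± 3.86 and 23.6 ± 5.20 CPM with cort, with changes of 0.49 ± 0.24 (adjusted p = 0.25) and 0.70 ± 0.24 (0.087). The value on the HPD passed the test without Veh HPD replicate 3 (0.96 ± 0.24, adjusted p = 0.018), the highest vehicle library at 22.1 CPM.

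Slc11a2 came nearest to a call in eWAT on the NPD. It was 10.9, 16.6, 13.8 and 18.6 CPM with vehicle and 23.7, 21.9, 19.2 and 27.6 CPM with cort, which do not overlap, with a change of 0.63 ± 0.20 (adjusted p = 0.057). It was called without Veh NPD replicate 4 (0.74, 0.039) and without Cort HPD replicate 4 (0.63, 0.040). Bmp6 was 0.388 to 0.798 CPM in the group means, with SDs of like size. Hamp had counts in 3 eWAT libraries and Hamp2 in 3, the highest at 10 counts, and Tfr2 up to 23 counts.

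The genes that are known to control hepcidin were listed from general knowledge and described in the same liver fits. Of 16 genes of the BMP and SMAD arm, cort on the NPD raised 1 and lowered 1, and on the HPD it lowered 3 and raised none, beside 12.6% and 9.89% of all genes called, with medians of 0.04 and -0.08 against -0.0052 and -0.0042 over all genes. The HPD under cort lowered 3, beside 5.88% of all genes called, and with vehicle none, beside 0.169%. The 2 of 16 called for cort on the NPD are a share near that of all genes. Id1, a direct SMAD target, fell with cort on both diets, from 22.3 to 8.81 CPM on the NPD (-1.33 ± 0.23, adjusted p = 3.6e-04) and from 17.7 to 6.54 CPM on the HPD (-1.43 ± 0.24, 5.5e-04), as Hamp did. Bmp2, the endothelial ligand, was at 17.1 CPM in Veh NPD and 16.9 in Cort NPD but fell on the HPD from 19.4 to 7.73 CPM with cort (-1.32 ± 0.21, adjusted p = 2.8e-04).

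Between diets under cort, Bmp2 (-1.13 ± 0.20, adjusted p = 0.0014), the type II receptor Bmpr2 (-0.99 ± 0.24, 0.017) and the SMAD target Atoh8 (-0.83 ± 0.22, 0.029) were lower on the HPD, as Hamp was. The other 13 genes of this arm, among them Id1, Smad6 and Smad7, were not called in that comparison. Endothelial markers summed to 147 to 152 CPM in Cort HPD liver and to 175 to 258 CPM in the other 3 groups. The medians were 149 CPM in Cort HPD, 219 in Cort NPD and 194 in Veh HPD. Of the 8 markers, 3 were lower on the HPD under cort, beside 5.88% of all genes called, and 5 were not called. The part of endothelial content in the Bmp2 values was not tested. Of 6 genes of the interleukin-6 and STAT3 arm, none was called for cort on the NPD, beside 12.6% of all genes, and 2 fell on the HPD, beside 9.89%: the receptor Il6ra (-0.85 ± 0.25, adjusted p = 0.036) and its partner Il6st (-0.60 ± 0.15, 0.013). With cort in both groups, Il6st was also lower in HPD mice (-0.76 ± 0.14, 0.0022). Gdf15, a secreted cytokine discussed as a hepcidin regulator, fell with cort on the HPD from 62.0 to 11.6 CPM (-2.42 ± 0.52, 0.012). Its SD was 38.5 CPM in Veh HPD.

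**Figure D5:**
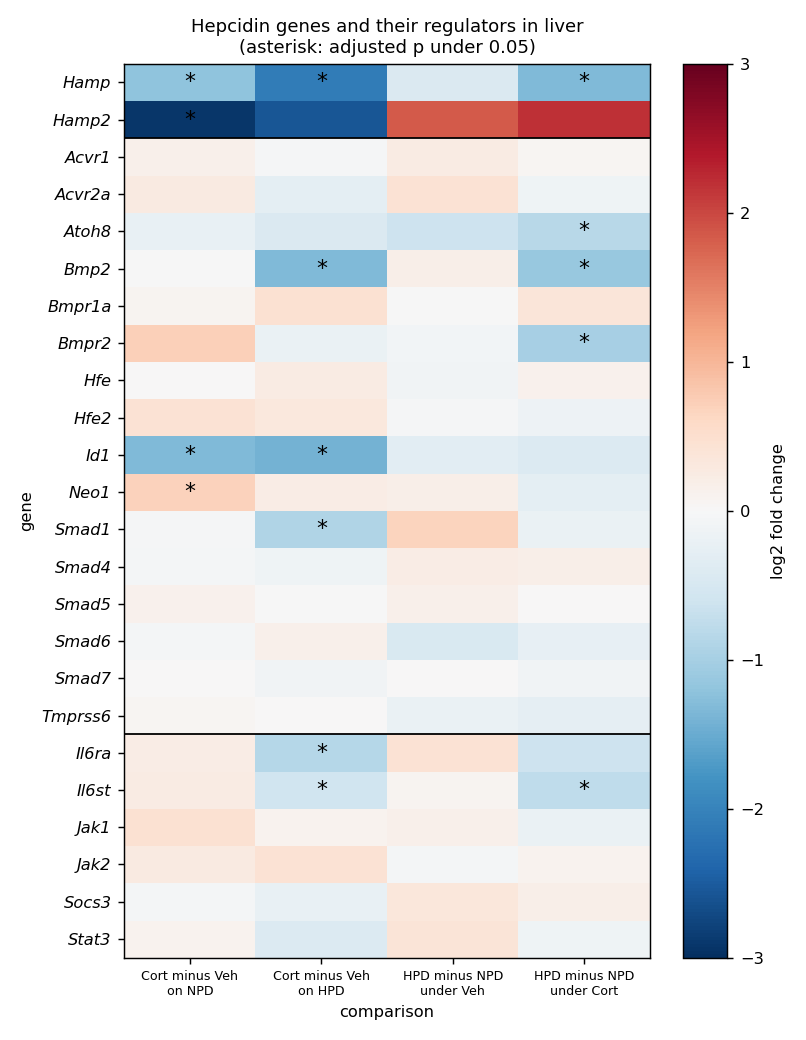
Log2 fold changes in liver of Hamp and Hamp2 (top), 16 genes of the BMP and SMAD arm (middle) and 6 of the interleukin-6 and STAT3 arm (bottom) in 4 comparisons, with an asterisk for an adjusted p under 0.05. Id1 fell with cort on both diets, and Bmp2 was lower in Cort HPD than in both Veh HPD and Cort NPD.

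The iron-regulatory proteins were described as well, since 4 of the iron genes held a match to their element. Of 3 genes, Ireb2, which encodes an iron-regulatory protein, was the 1 called in liver, beside the shares of all genes given above: it fell with cort from 45.6 to 32.2 CPM on the NPD (-0.50 ± 0.15, adjusted p = 0.029) and from 55.2 to 36.2 CPM on the HPD (-0.61 ± 0.16, 0.017). No gene of this list was called between diets in liver, beside 0.169% of all genes with vehicle and 5.88% under cort. These values are mRNA levels, and the proteins and their binding to RNA were not measured. In eWAT on the HPD, Aco1, the other iron-regulatory protein, fell with cort (-0.64 ± 0.14, 0.0052), and Fbxl5, which marks these proteins for breakdown, rose (0.59 ± 0.15, 0.020).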

How the data were processed

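RNA of liver and eWAT was measured by QuantSeq 3′ mRNA sequencing in 32 libraries, 4 for each of 4 groups per tissue, with groups taken from the sample labels. The values are whole-number counts, 1 row for each Ensembl ID and 1 column for each library, as deposited by the authors without normalization. The submitters' processing notes name the builds GRCm38 and mm10, R 4.0.3 and limma, while the aligner, the counting program and its use of strand are not given in the sources used here. Of 47643 gene IDs, 47224 had a symbol in GENCODE for GRCm38. QuantSeq reads the 3′ end of each transcript, so CPM carry no length correction.

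The tests used edgeR 4.0.16 under R 4.3.3: filterByExpr (minimum count 10, minimum total 15), TMM scaling, robust quasi-likelihood F tests on 1 mean per group, and Benjamini-Hochberg adjustment over all genes tested. Each tissue had its own fit. Liver was fitted without Veh HPD replicate 4, by the rule that set which libraries these values come from. No source used here names an excluded library, and all 16 are an alternative. Tissue differences came from a fit of both tissues with 8 groups. The labels do not name the mouse behind each library or say whether the replicates come from separate cohorts, so p-values measure the spread between these libraries. No 2 libraries of a group were identical or agreed within counting noise. The intervals in the text are normal 95% intervals of the fitted change.

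The iron genes, the lists of other iron genes and of cell-type markers (159 of 160 entries matched) and the tests were chosen with earlier results of these data known. All 10 iron genes are given. Of each other list, up to 4 called genes per tissue with the smallest p are named, and for Hamp and Tfrc in liver the 5 genes of highest Pearson correlation of log2 CPM (prior count 2). Alternatives were RLE factors, DESeq2 1.42.0, limma 3.58.1 with voom, no filter, only the 2 groups compared, all liver libraries, a replicate block, leaving out each library, added counts of like genes and, chosen after seeing the data, library totals without scaling factors and single libraries left out of the fit of both tissues. In simulated liver and eWAT counts with 200 genes changed by a log2 change of 2, edgeR recovered 100% of them, with 4.31% of its calls false in liver (12391 genes) and 4.76% in eWAT (15187 genes). The simulated spread between libraries was the same for every gene and below the common spread of the eWAT libraries. These shares therefore do not carry over to smaller changes, such as most of those called here, or to genes of wider spread. Transcripts are from GENCODE. Fold changes of the study itself were not used.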

Additional observations from a re-analysis of the deposited data

Results flagged for a closer look

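Among the iron genes, 2 of 55 groups of 4 libraries held a value far from the other 3 by Dixon's criterion, where chance gives about 1 in 20. Trf in liver Veh NPD replicate 3 was 5665 CPM, with the nearest library at 4455 CPM. Slc11a2 in eWAT Veh HPD replicate 2 was 15.3 CPM, with the nearest at 20.1 CPM.

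The liver library that was left out, Veh HPD replicate 4, held more Tfrc (74.6 CPM) and more Hamp2 (1426 CPM) than any fitted liver library. These values were scaled with all 16 liver libraries. Its Hamp was 854 CPM, its Trf 3353 CPM and its Tfr2 47.9 CPM, the last 2 below every fitted liver library, as were its hepatocyte markers.

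The effects of the same treatment differed between tissues for 2 genes, by the test of the difference in a fit of both tissues. The mean cort effect on Trf was higher in liver than in eWAT by 1.65 on the log2 scale, and the mean diet effect on Tfrc by 1.83.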

How the results depend on the processing

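The 18 called changes of the iron genes kept their direction in all 442 values that the alternatives gave, and 413 of these were still called. Of 74 uncalled changes with 1818 values, 17 values were called and 63 turned sign without a call. When only the 2 groups compared were fitted, the diet effect with vehicle in liver gave 0 called iron genes in place of 1, since Tfrc kept its change of 2.28 with an adjusted p of 0.10. These fits also ended the call of Hamp2 in liver for cort on the NPD (-2.91, adjusted p = 0.095). For cort on the HPD in liver they ended those of Fth1 (0.671, 0.053) and Trf (0.805, 0.051) and added that of Hamp2 (0.0036). Leaving out each library in turn gave 3 to 5 called genes for cort on the NPD in liver, with 3 without Cort NPD replicate 1, Veh NPD replicate 1 or Veh NPD replicate 2, and 1 to 2 for cort on the HPD in eWAT, with 2 without Veh HPD replicate 3. In the other comparisons the counts moved by no more than 1. With all 16 liver libraries, Fth1 for cort on the NPD (adjusted p = 0.065) and Slc40a1 for diet under cort (0.059) lost their call, and Hamp2 for cort on the HPD gained one (0.040).

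Same-numbered replicates did not deviate together, with correlations of -0.12 to 0.25 over 24 pairs in eWAT and -0.13 to 0.16 over 21 pairs in liver, so the number was not taken to pair samples. A replicate block gave 5 called genes in place of 4 for cort on the HPD in liver, adding Hamp2 (-3.01, adjusted p = 0.037), and 3 in place of 2 for cort on the NPD in eWAT, adding Slc11a2 (0.63, 0.040). The cause of these changes was not tested. Bmp6 in liver and Hamp, Hamp2 and Tfr2 in eWAT had too few counts to be tested.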

Other observations

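Other genes of iron and heme handling were called around the 10 iron genes. Of 14 tested genes of iron transport and storage in liver, cort raised 2 and lowered 1 on the NPD and raised 3 and lowered 3 on the HPD, beside 12.6% and 9.89% of all genes called. Lcn2, which encodes the siderophore-binding lipocalin 2, rose from 6.02 to 174 CPM on the NPD (4.86 ± 0.33, adjusted p = 3.7e-08) and from 7.60 to 203 CPM on the HPD (4.74 ± 0.36, 3.2e-07). Ceruloplasmin (Cp), the plasma ferroxidase that loads iron onto transferrin, rose from 914 to 1741 CPM on the NPD (0.93 ± 0.16, 4.2e-04) and from 848 to 1498 CPM on the HPD (0.82 ± 0.18, 0.0043), as Trf did in liver. The metalloreductase Steap4 fell on both diets (-1.49 ± 0.32 and -1.79 ± 0.34). Scara5, a receptor for ferritin, was lower in Cort HPD than in Cort NPD liver, at 2.26 against 19.1 CPM (-3.07 ± 0.59, 0.010), with an SD of 13.5 CPM in Cort NPD.

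Proteins that clear hemoglobin and heme from plasma did not all move one way in liver. Haptoglobin (Hp) rose with cort on the NPD (1.21 ± 0.16, adjusted p = 2.6e-05) and on the HPD (1.97 ± 0.19, 3.3e-07), while hemopexin (Hpx) fell with cort on the NPD (-0.66 ± 0.18, 0.020) and was higher on the HPD than on the NPD under cort (1.27 ± 0.19, 3.1e-04). The receptors Cd163 (-1.43 ± 0.33, 0.0088) and Lrp1 (-0.86 ± 0.16) were lower with cort on the HPD. Cd163 is also on the list of macrophage markers, whose sum was 113 to 258 CPM in cort liver and 268 to 376 CPM in vehicle liver, and the part of this was not tested. The counts that follow stand beside 12.6% of all genes called for cort on the NPD, 9.89% for cort on the HPD and 5.88% for diet under cort, and 1 of 8 is near such a share. Of 8 heme synthesis genes in liver, 1 fell with cort on each diet, Alad. Of 7 genes of heme breakdown and export, cort called none on the NPD and raised 2 on the HPD, Slc48a1 (0.65 ± 0.17) and Flvcr1 (1.04 ± 0.32). Of 8 iron-sulfur cluster genes, 1 rose with cort on the NPD (Glrx5, 0.58 ± 0.15) and 1 with the HPD under cort (Iscu, 0.93 ± 0.27). Of 12 acute-phase genes in liver, cort raised 2 and lowered 2 on the NPD and raised 4 and lowered 1 on the HPD. Orm3 rose by 2.74 ± 0.20 and 3.31 ± 0.22. With vehicle, the HPD called none of the genes of these lists in liver, beside 0.169% of all genes.

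In eWAT, cort on the NPD raised Alas1, which encodes the first enzyme of heme synthesis (1.09 ± 0.21, adjusted p = 0.0025), and the heme oxygenase Hmox1 (0.91 ± 0.23, 0.013). Of 17 genes of iron transport and storage there, cort raised 2 on the NPD and 3 on the HPD and lowered none, beside 7.98% and 6.09% of all genes called, among them the metalloreductase Steap2 (1.24 ± 0.27 and 1.01 ± 0.26). A further call on the HPD was Lcn2, with an SD of 439 CPM about a mean of 240.1 CPM in Cort HPD, the group whose replicate 4 held epididymis transcripts. The mitochondrial iron importer Slc25a37 was higher in Cort HPD eWAT, at 58.7 CPM against 22.0 CPM in Cort NPD (1.41 ± 0.18, adjusted p = 1.2e-04) and 23.1 CPM in Veh HPD. It is also known from red-cell precursors, and red-cell markers summed to 12687 to 25864 CPM in that group and at most 9275 CPM in the others, whose part was not tested. Haptoglobin rose with cort on both diets (2.57 ± 0.17 and 2.14 ± 0.17). Hfe was lower on the HPD with vehicle (-0.79 ± 0.13, 0.0054), the 1 call of 15 genes of the BMP and SMAD arm in that comparison, beside 0.0593% of all genes.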
